A study of Homo sapiens with 5 samples.

Results

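Chromosome 19 is the most gene-dense human chromosome, and it also carries large clusters of KRAB zinc finger genes. Described here are peaks of 3 chromatin immunoprecipitation sequencing (ChIP-seq) lists, with centres on chromosome 19 outside intervals left out for such clusters. These left-out intervals were positions 19900000 to 24500000 and 52000000 to 58900000 of hg19, and they are the zinc finger clusters named below. Zinc finger genes elsewhere on the chromosome were not looked for, so members may lie among them. The choice used position alone and no score. It took 6417 of 194759 peaks (3.29%), namely 3773 of 94237 ASXL1 peaks (4.00%), 2165 of 78825 O-GlcNAc peaks (2.75%) and 479 of 21697 FOXK1 peaks (2.21%). The remaining 47.6 Mb, the length up to the last peak less the left-out intervals, are called gene-rich chromosome 19 below.

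The cells of every library were Flp-In HEK293 T-REx, an established human embryonic kidney line with a recombination site for transgenes and a tetracycline repressor. The labels name no genotype or treatment that differs between libraries. Each antibody, against ASXL1, FOXK1 or O-GlcNAc, gave 1 library, so no difference between antibodies has a replicate check. ASXL1 and O-GlcNAc used chromatin preparation 63 and FOXK1 preparation 62, each called against the input of its own preparation, so for FOXK1 the antibody cannot be told apart from the preparation. Depth is unknown, and scores are those of the authors' peak caller, compared only within a list. No label states their scale. Their lowest value of 50 and 2 decimals look like a multiple of a p-value on a negative log10 scale. Many of the highest ASXL1 and O-GlcNAc peaks share the value 3100. It is no strict upper limit, because some peaks score higher, up to 3233.06 in each of these lists. Score medians therefore serve to order peaks and are no measure of how much protein was bound.

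ASXL1 is a subunit of the Polycomb repressive deubiquitinase complex, in which it activates BAP1, the enzyme that removes ubiquitin from histone H2A. FOXK1 is a forkhead transcription factor that binds BAP1 and brings the complex to DNA. O-GlcNAc is a sugar that the transferase OGT attaches to serine and threonine residues of nuclear proteins, and OGT and its cofactor HCFC1 also associate with BAP1. Proteins of this kind are known to gather at CpG-rich promoters of active genes.

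RefSeq (GRCh38.p14) lists 1451 protein-coding symbols on the whole of chromosome 19, 770 on chromosome 4 and 338 on chromosome 13. These are 24.6, 4.03 and 2.94 genes per Mb, so chromosomes 4 and 13 serve as the gene-poor comparison. On chromosome 19, 250 of the symbols begin with ZNF, against 8 on chromosome 4 and 0 on chromosome 13. The peak lists are on hg19 and the gene table is not, so genes were counted by chromosome only, and no peak is tied to a gene or a sequence here.

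All 3 targets had more peaks per Mb on gene-rich chromosome 19 than on chromosomes 4 and 13, but by unequal factors. ASXL1 had 79.3 peaks per Mb against 17.3 on chromosome 4 and 19.1 on chromosome 13. Its ratio to both chromosomes together was 4.41 (exact 95% interval 4.23 to 4.595). O-GlcNAc had 45.5 peaks per Mb against 15.2 and 19.3, a ratio of 2.71 (2.58 to 2.86). FOXK1 had 10.1 peaks per Mb against 4.55 and 4.87, a ratio of 2.15 (1.94 to 2.39). These intervals cover counting error only, and they are too narrow to the extent that neighbouring peaks are not independent. The factors changed with the limit on score. At a score of at least 100 they were 6.56 for ASXL1 (6.12 to 7.02), 6.98 for O-GlcNAc (6.36 to 7.66) and 2.52 for FOXK1. The O-GlcNAc ratio was then no longer below that of ASXL1.

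Among chromosomes 1 to 22 and X, gene-rich chromosome 19 ranked 1 of 23 in ASXL1 density, and chromosome 17 came next with 60.02 peaks per Mb. It also ranked 1 in O-GlcNAc density, ahead of chromosome 6 with 40.8. In FOXK1 density it ranked 4, after chromosomes 6, 1 and 10, which held 11.4, 10.6 and 10.5 peaks per Mb. Against the rest of chromosomes 1 to 22 and X, the density ratio was 2.62 for ASXL1 (2.54 to 2.71), 1.78 for O-GlcNAc (1.70 to 1.85) and 1.43 for FOXK1 (1.30 to 1.57).

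**Figure D1:**
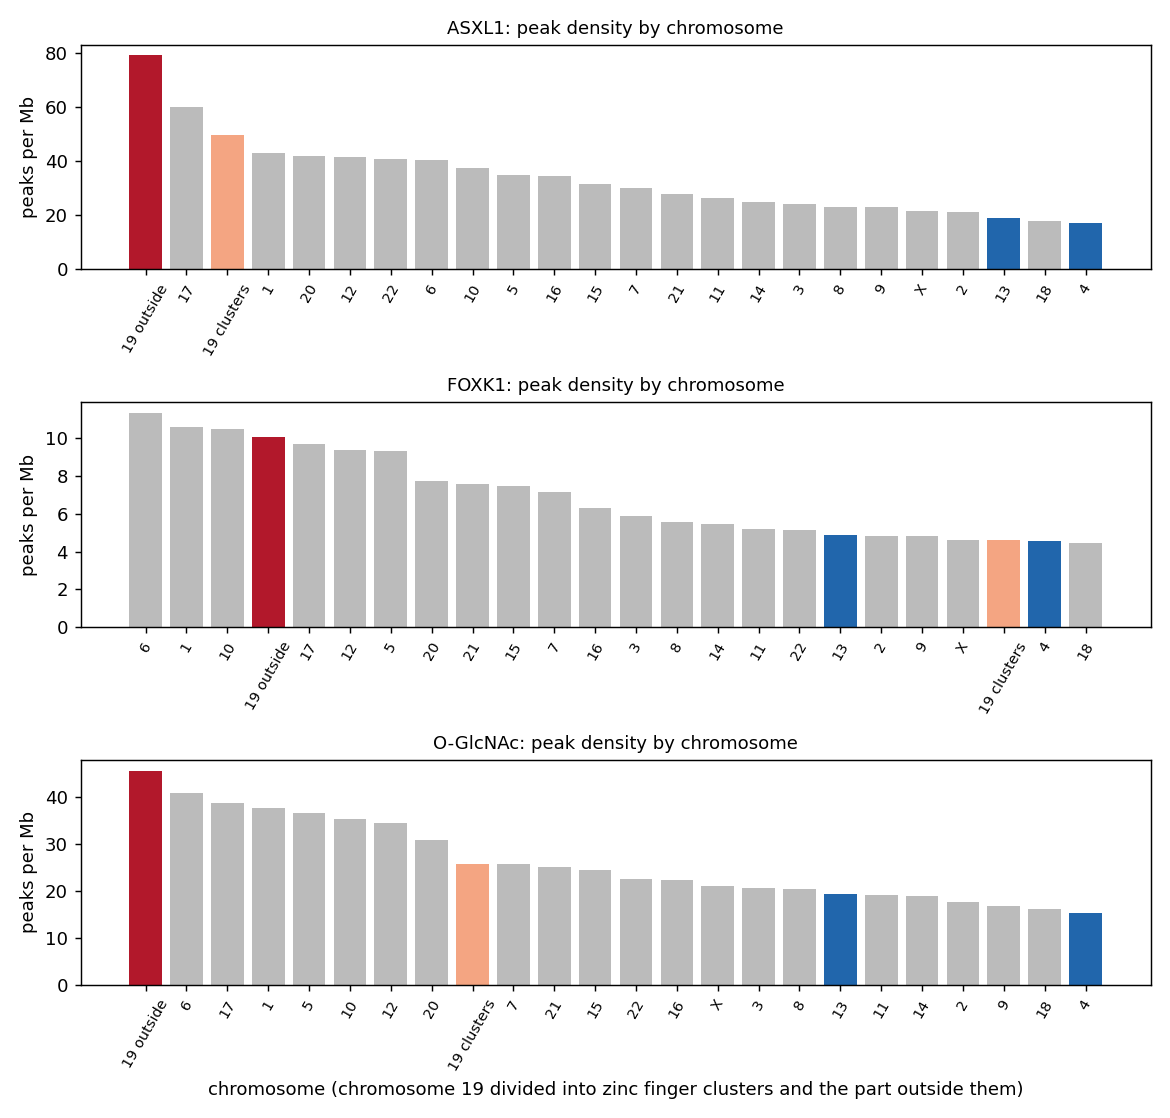
Peaks per Mb (vertical axis) for each chromosome (horizontal axis, in descending order), 1 panel per list. Red bars are chromosome 19 outside the zinc finger clusters, orange bars the clusters, blue bars chromosomes 4 and 13 and grey bars all others. The red bar leads for ASXL1 (79.3) and O-GlcNAc (45.5) and is exceeded by 3 chromosomes for FOXK1 (10.1).

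The left-out zinc finger clusters differed from their surroundings on the same chromosome. Gene-rich chromosome 19 had 1.59 times the ASXL1 density of the clusters (1.45 to 1.74), 1.78 times the O-GlcNAc density (1.57 to 2.02) and 2.18 times the FOXK1 density (1.64 to 2.96). FOXK1 density in the clusters was 4.61 peaks per Mb, between the values of chromosomes 4 and 13.

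Per gene rather than per Mb, the order was turned around. The whole of chromosome 19, clusters included, held 3.00 ASXL1 peaks per protein-coding gene, against 4.29 on chromosome 4 and 6.51 on chromosome 13. For O-GlcNAc the values were 1.69, 3.77 and 6.59 peaks per gene, and for FOXK1 0.367, 1.13 and 1.66. Of these 3 chromosomes, peaks per gene were thus lowest on chromosome 19 in each list.

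The mix of targets also differed. Gene-rich chromosome 19 had 7.88 ASXL1 peaks for each FOXK1 peak, against 3.80 on chromosome 4, 3.93 on chromosome 13 and 4.34 in the whole lists. It had 1.74 ASXL1 peaks for each O-GlcNAc peak, against 1.14 on chromosome 4 and 0.988 on chromosome 13. O-GlcNAc peaks for each FOXK1 peak differed less, with 4.52 against 3.34 and 3.98. The zinc finger clusters had higher values of all 3 quotients, with 10.8, 1.95 and 5.55 in the same order.

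Peaks of gene-rich chromosome 19 carried higher scores. The median ASXL1 score was 88.8 against 73.05 on chromosome 4 and 71.01 on chromosome 13. The median O-GlcNAc score was 85.1 against 66.3 and 65.0, and the median FOXK1 score was 87.04 against 80.8 and 72.2. Gene-rich chromosome 19 had the highest median score of the 23 chromosomes compared in each list. The probability that one of its peaks outscored a peak of chromosomes 4 and 13 was 0.650 for O-GlcNAc, 0.589 for ASXL1 and 0.548 for FOXK1, where 0.5 means no difference.

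The zinc finger clusters scored higher than gene-rich chromosome 19 for O-GlcNAc, with a median of 113. There 53.7% of O-GlcNAc peaks had a score of at least 100 and 40.8% fell among the highest-scoring 10.0% of the list, and a peak of gene-rich chromosome 19 outscored one of the clusters with a probability of 0.430. Against the clusters that probability was 0.508 for ASXL1 and 0.530 for FOXK1.

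A score of at least 100 was reached by 949 of 2165 O-GlcNAc peaks (43.8%, 95% Wilson interval 41.8 to 45.9), against 17.04% on chromosomes 4 and 13 and 21.2% in the whole list. For ASXL1 it was reached by 1693 of 3773 peaks (44.9%, 43.3 to 46.5), against 30.2% and 33.0%. For FOXK1 it was reached by 194 of 479 peaks (40.5%, 36.2 to 45.0), against 34.7% and 33.9%. The FOXK1 interval overlapped that of the gene-poor chromosomes (32.3 to 37.2), while those of ASXL1 and O-GlcNAc did not overlap theirs.

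**Figure D2:**
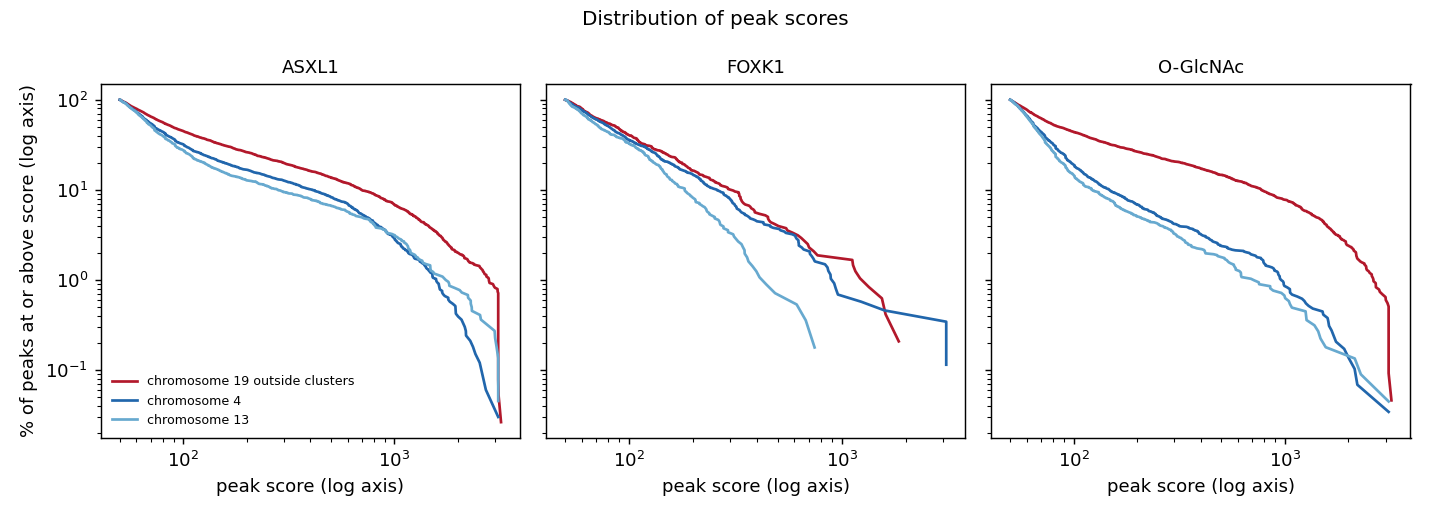
Share of peaks at or above a given score (vertical log axis, in percent) against that score (horizontal log axis), 1 panel per list, for gene-rich chromosome 19 (red), chromosome 4 (dark blue) and chromosome 13 (light blue). The red curve of O-GlcNAc runs well above both others, with 43.8% of peaks at a score of 100 or more, while the 3 FOXK1 curves lie close together up to that score.

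Each whole list was then divided into 10 classes of equal size by score, so that 10.0% of the list fell in the highest class. Of the O-GlcNAc peaks of gene-rich chromosome 19, 609 (28.1%, 26.3 to 30.1) fell in that class, against 6.65% on chromosomes 4 and 13. The O-GlcNAc density ratio lay between 1.58 and 2.07 in classes 1 to 8, was 4.46 in class 9 (3.87 to 5.15) and reached 11.5 in class 10 (10.04 to 13.2). The excess of O-GlcNAc peaks was thus largest at scores of 102.38 or more.

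ASXL1 differed in shape. Its density ratio was 3.55 in the lowest class (3.08 to 4.08), 3.07 in class 3, and rose by class 8 to 5.42 (4.77 to 6.15) and in class 10 to 7.84 (6.93 to 8.88). Low-scoring ASXL1 peaks were thus already over 3 times as dense as on the gene-poor chromosomes. The FOXK1 ratio was 1.30 in the lowest class (0.824 to 1.97), an interval that holds 1, and 3.10 in the highest (2.30 to 4.16).

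**Figure D3:**
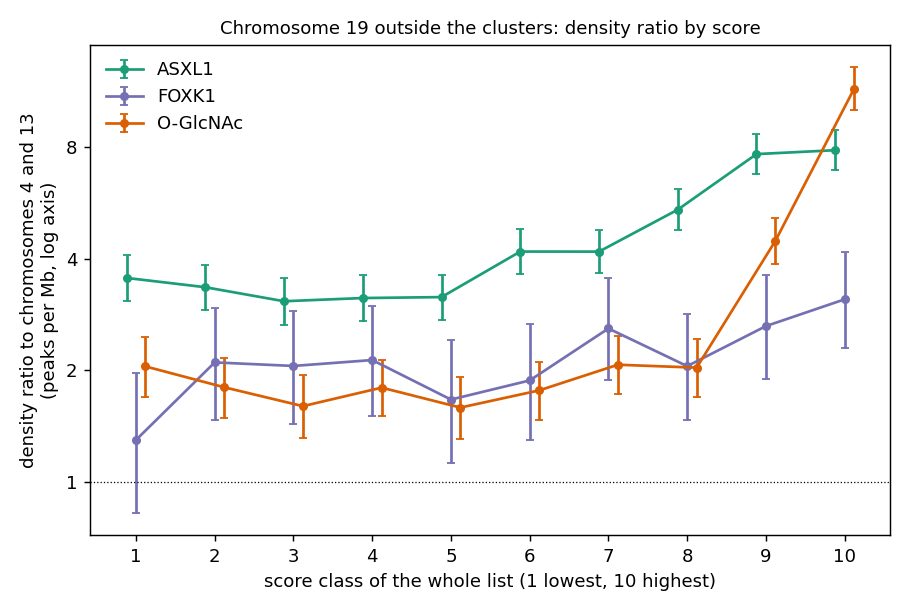
Ratio of peak density on gene-rich chromosome 19 to that on chromosomes 4 and 13 (vertical log axis) for 10 score classes of each whole list (horizontal axis), with exact 95% intervals for counting error as bars. The O-GlcNAc ratio stays near 2 until class 8 and ends at 11.5, the ASXL1 ratio climbs from class 6 on to 7.84, and the FOXK1 ratio stays lowest at the top with 3.10.

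Peaks of gene-rich chromosome 19 were also wider. Median widths of ASXL1, O-GlcNAc and FOXK1 peaks were 459, 399 and 616 bp there, against 244, 220 and 411 bp on chromosomes 4 and 13, and each was the highest of the 23 chromosomes. The zinc finger clusters, which are not among those 23, had medians of 327.5, 406 and 621 bp in the same order. On gene-rich chromosome 19 the O-GlcNAc and FOXK1 peaks were thus no wider than in the clusters. Of the O-GlcNAc peaks of gene-rich chromosome 19, 59.6% fell in the widest of 4 equal width classes of the list (330 bp or more), against 17.02% on the gene-poor chromosomes. The shares were 48.2% against 17.5% for ASXL1 and 49.3% against 19.4% for FOXK1.

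The score difference was bound up with this width difference. Within the widest class, the median ASXL1 score was 206 on gene-rich chromosome 19 and 370 on chromosomes 4 and 13, so its peaks outscored the others with a probability of 0.388. In the 3 narrower classes, from the narrowest up, it was 0.416, 0.502 and 0.331. In the middle 50% of widths that probability was 0.485 (0.467 to 0.502), an interval that holds 0.5. For FOXK1 the 4 classes from narrowest to widest gave 0.353, 0.552, 0.432 and 0.426, and the middle 50% of widths gave 0.519 with an interval of 0.474 to 0.563 that holds 0.5. At a score of at least 100 the FOXK1 interval, 0.494 to 0.593, held 0.5 as well. O-GlcNAc kept the higher scores in its widest class, with medians of 157 and 134 and a probability of 0.547. In its narrower classes, from the narrowest up, the probability was 0.375, 0.514 and 0.488.

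ASXL1 and O-GlcNAc peaks lay closer together than on the gene-poor chromosomes. The median distance to the nearest ASXL1 peak was 1.75 kb, against 5.44 kb on chromosome 4 and 5.02 kb on chromosome 13, and 53.6% of ASXL1 peaks had a neighbour within 2 kb. For O-GlcNAc the median distance was 5.78 kb, against 11.96 and 10.2 kb. When peaks under 1000 bp apart were joined, the ASXL1 density ratio was 3.61. For FOXK1 the median distance was 23.5 kb, between the 30.1 kb of chromosome 4 and the 22.5 kb of chromosome 13, and 7.93% had a neighbour within 2 kb, against 14.02% and 13.75%.

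The design asks where the 3 targets coincide. Peaks were called shared when they overlapped by at least 1 bp. FOXK1 peaks of gene-rich chromosome 19 coincided with both other targets in a larger share. Those targets also covered more of its length, for which these shares are not corrected. Of 479 FOXK1 peaks, 290 overlapped an O-GlcNAc peak (60.5%, 56.1 to 64.8), against 34.8% on chromosome 4, 32.1% on chromosome 13 and 37.8% in the whole list. The difference from the gene-poor chromosomes was 26.8 percentage points (95% Newcombe interval 21.7 to 31.7). An ASXL1 peak was overlapped by 280 (58.5%, 54.0 to 62.8), against 44.9%, 39.1% and 42.3%, a difference of 15.8 points (10.6 to 20.8). At a score of at least 100 these differences were 40.9 and 29.0 points.

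O-GlcNAc peaks also coincided with ASXL1 more often. On gene-rich chromosome 19, 1108 of 2165 overlapped an ASXL1 peak (51.2%, 49.1 to 53.3), against 25.7% on chromosome 4, 18.5% on chromosome 13 and 27.1% in the whole list. The difference was 28.6 points (26.2 to 31.0). In each of these 3 pairs gene-rich chromosome 19 had the highest share of the 23 chromosomes compared. The zinc finger clusters of the same chromosome, which are not among those 23, had higher shares still. There 77.4% of 53 FOXK1 peaks overlapped ASXL1 and 75.5% overlapped O-GlcNAc, so gene-rich chromosome 19 differed from them by −18.9 points (−29.1 to −5.31) and −14.9 points (−25.5 to −1.21). Of 294 O-GlcNAc peaks in the clusters, 58.5% overlapped ASXL1, a difference of −7.33 points (−13.2 to −1.24). When each list was limited to its 10000 highest-scoring peaks, O-GlcNAc peaks that overlapped ASXL1 differed in share from those of chromosomes 4 and 13 by −3.37 points (−9.00 to 2.35), an interval that holds 0, in place of the 28.6 points above. At a score of at least 100 it was 13.3 points.

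Seen from the ASXL1 list, the pattern was split. Of 3773 ASXL1 peaks, 1094 overlapped O-GlcNAc (29.0%, 27.6 to 30.5), above the 20.6% of the gene-poor chromosomes and the 22.4% of the whole list. This difference of 8.43 points (6.64 to 10.2) was 4.40 without the widest 1% of peaks. Only 306 overlapped FOXK1 (8.11%, 7.28 to 9.02), below the 11.7% of the gene-poor chromosomes and the 10.5% of the whole list. The difference of −3.55 points (−4.76 to −2.32) was −6.81 with the 10000 highest-scoring peaks, and it was negative against chromosome 4 (−4.42) and chromosome 13 (−2.25) alike. In the zinc finger clusters the share was 8.36%, a difference of −0.252 points (−2.93 to 1.94), so the low share was found there too. Gene-rich chromosome 19 ranked 21 of 23 in this share, above chromosomes 21 and 22. Of the O-GlcNAc peaks, 309 overlapped FOXK1 (14.3%, 12.9 to 15.8), against 9.96% and, in the whole list, 11.1%. This last difference of 4.31 points (2.66 to 6.04) became −1.87 (−5.25 to 1.499) at a score of at least 100 and −4.80 (−9.90 to 0.192) with the 10000 highest-scoring peaks, and both intervals hold 0.

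A dense list is met more often by position alone, and the lists covered more of gene-rich chromosome 19. ASXL1 peaks covered 5.18% of gene-rich chromosome 19 and 0.623% of chromosomes 4 and 13. O-GlcNAc peaks covered 2.49% against 0.455%, and FOXK1 peaks 0.751% against 0.249%. The undivided share was lower on gene-rich chromosome 19 only for ASXL1 in FOXK1. Divided by the coverage of the list that was met, it was lower there in all 6 ordered pairs. The share of FOXK1 peaks in O-GlcNAc was 24.3 times that coverage on gene-rich chromosome 19 and 74.2 times on chromosomes 4 and 13, and in ASXL1 it was 11.3 and 68.5 times. For O-GlcNAc peaks the values were 9.87 and 36.2 in ASXL1 and 19.02 and 40.04 in FOXK1, and for ASXL1 peaks they were 11.6 and 45.2 in O-GlcNAc and 10.8 and 46.9 in FOXK1. A share cannot exceed 100%, so this quotient has a lower ceiling where coverage is higher. In the 4 pairs where ASXL1 or O-GlcNAc was met, the gene-poor values lie above the ceiling of gene-rich chromosome 19. For those pairs the quotient could only come out lower there.

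At like scores the pairs fell into different patterns. The share of FOXK1 peaks in O-GlcNAc was higher on gene-rich chromosome 19 in 10 of 10 score classes, and in the highest class it was 91.4% (64 of 70 peaks) against 55.9% (81 of 145). The share of ASXL1 peaks in FOXK1 was lower in 10 of 10 classes. In class 9 it was 11.98% (66 of 551) against 27.4% (127 of 463), and in class 10 it was 24.96% (143 of 573) against 33.8% (159 of 470).

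The pair of ASXL1 and O-GlcNAc depended on the side it was read from. O-GlcNAc peaks overlapped ASXL1 more often on gene-rich chromosome 19 in 9 of 10 classes, the exception being the highest, where it was 88.8% against 95.3%. The share of ASXL1 peaks in O-GlcNAc was higher in 7 classes, and in classes 8 to 10 it was lower, with 82.7% against 87.2% in class 10. The 95% interval of this difference left out 0 only in classes 4, 6 and 10. Weighting the classes of chromosomes 4 and 13 by the ASXL1 class sizes of gene-rich chromosome 19 gave 29.4% for ASXL1 in O-GlcNAc, close to the observed 29.0%. The same weighting gave 15.3% for ASXL1 in FOXK1 against the observed 8.11%, and 35.9% for FOXK1 in O-GlcNAc against 60.5%. For FOXK1 in ASXL1 it gave 45.5% against 58.5%. For O-GlcNAc in ASXL1 it gave 43.3% against 51.2%, a smaller gap than the unweighted 22.6% leaves. For O-GlcNAc in FOXK1 it gave 18.6%, above the observed 14.3%, whereas the unweighted 9.96% lay below it. In that pair 7 of 10 classes were not higher on gene-rich chromosome 19. The interval of the difference left out 0 in class 4, where the share was higher, and in classes 9 and 10, where it was lower.

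**Figure D4:**
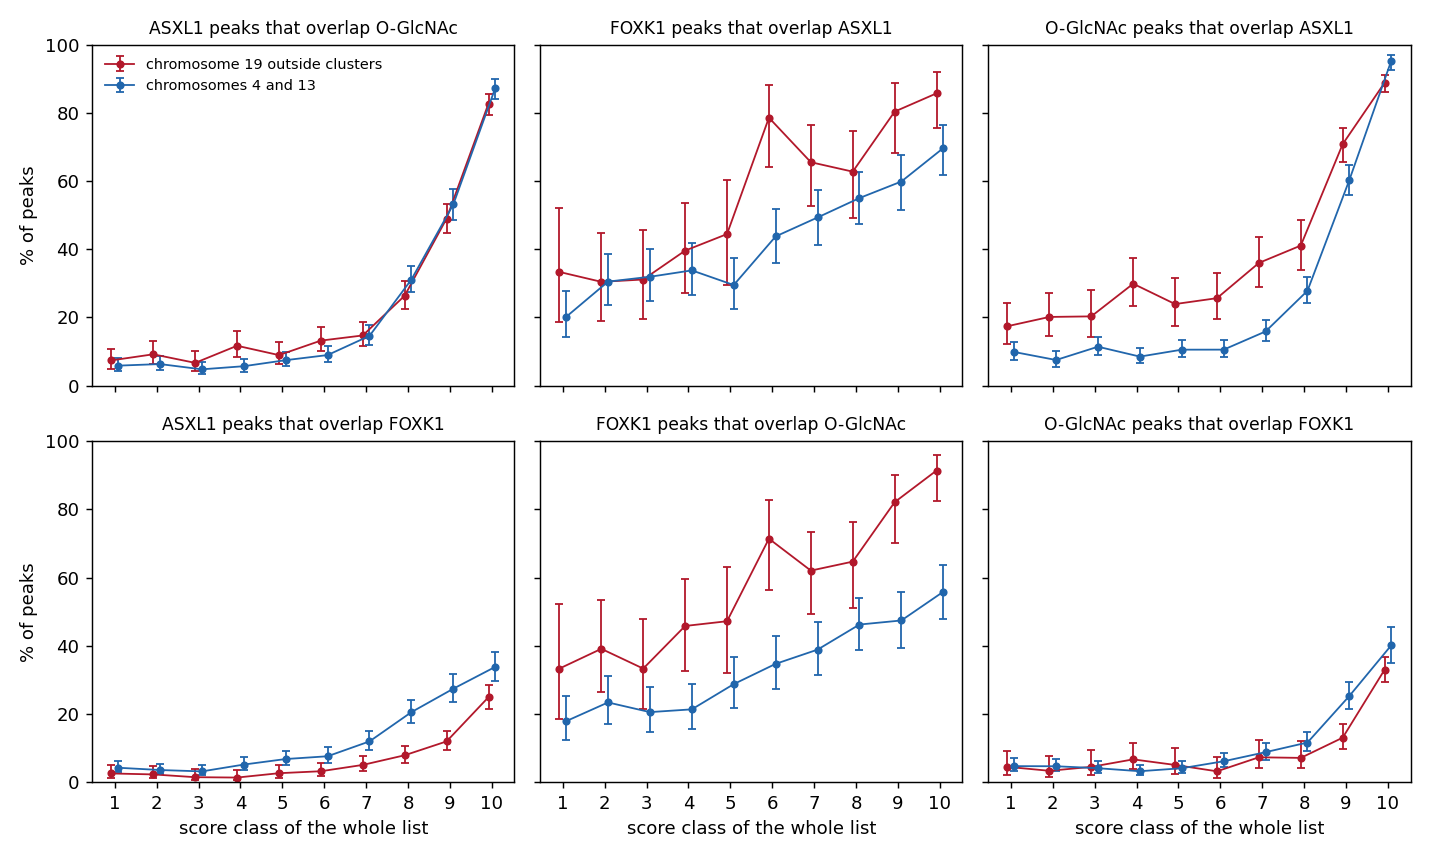
Share of peaks that overlap another list (vertical axis, in percent) by score class of the whole list (horizontal axis), 1 panel per ordered pair, for gene-rich chromosome 19 (red) and chromosomes 4 and 13 together (blue), with 95% Wilson intervals as bars. Red lies above blue in every class for FOXK1 peaks in O-GlcNAc, below it in every class for ASXL1 peaks in FOXK1, and close to it for ASXL1 peaks in O-GlcNAc.

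The peaks of gene-rich chromosome 19 merged into 4900 regions, or 103 per Mb against 32.9 per Mb on chromosomes 4 and 13. Regions held by ASXL1 and O-GlcNAc without FOXK1 had the steepest difference. There were 779 of them (15.9% of regions, against 8.48% in the whole series), at 16.4 per Mb against 2.30, a ratio of 7.13 (6.43 to 7.90). Regions held by all 3 targets numbered 243 (4.96%, against 3.90% in the whole series), at 5.11 per Mb against 1.21, a ratio of 4.21 (3.57 to 4.97). Regions of FOXK1 and O-GlcNAc without ASXL1 numbered 45 (0.918%, against 1.19%), a ratio of 2.58 (1.79 to 3.68).

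Regions held by ASXL1 and FOXK1 without O-GlcNAc were the exception to the higher density. Gene-rich chromosome 19 held 30 (0.612%, 0.429 to 0.873), against 2.28% of regions on chromosomes 4 and 13 and 1.73% in the whole series. Their density was 0.630 per Mb against 0.764 on chromosome 4 and 0.730 on chromosome 13, a ratio of 0.839 with an interval of 0.553 to 1.23 that holds 1. It was the lowest ratio of the 7 kinds of region. The zinc finger clusters held 1 such region, or 0.0870 per Mb. Without the widest 1% of peaks of each list the ratio was 1.396 (1.01 to 1.90), so its side of 1 changed with the widest peaks.

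Single-target regions were 2640 for ASXL1 (53.9% of regions, against 43.6% in the whole series), 1009 for O-GlcNAc (20.6%, against 34.5%) and 154 for FOXK1 (3.14%, against 6.59%). Their density ratios were 4.14 (3.94 to 4.34), 1.69 (1.58 to 1.81) and 1.405 (1.17 to 1.67). Median scores of ASXL1, O-GlcNAc and FOXK1 peaks found alone were 73.8, 64.7 and 64.7, against 320, 166 and 103 for peaks that overlapped another list.

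**Figure D5:**
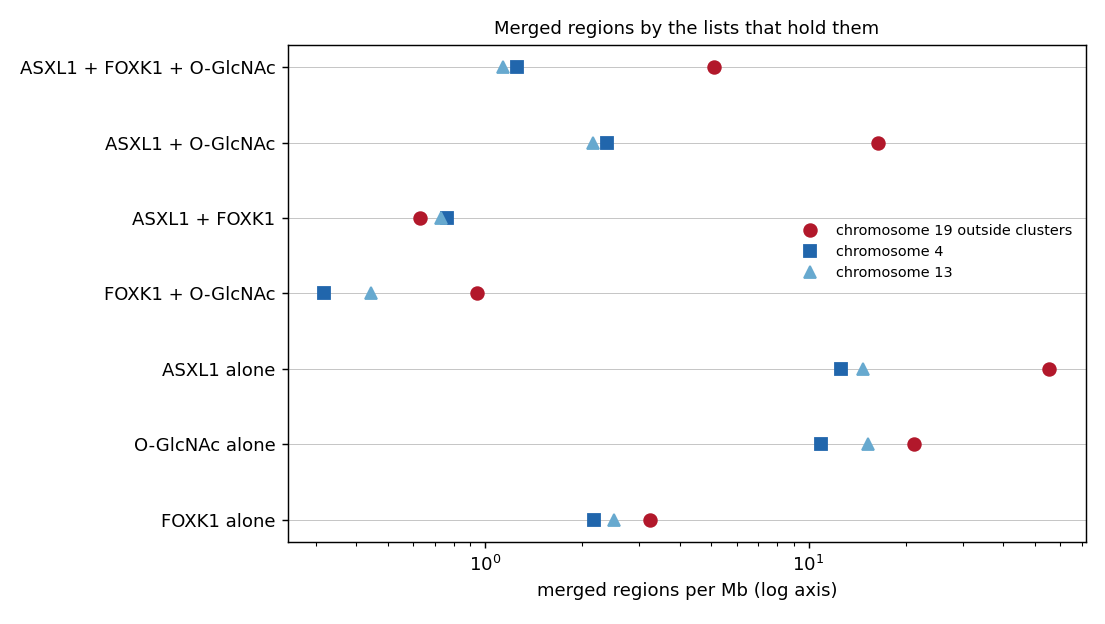
Merged regions per Mb (horizontal log axis) for each combination of lists that holds them (vertical axis), on gene-rich chromosome 19 (red circles), chromosome 4 (blue squares) and chromosome 13 (light blue triangles). The red circle lies to the right in every combination except ASXL1 with FOXK1, where it stands at 0.630 per Mb against 0.764 and 0.730.

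Where FOXK1 met ASXL1 on gene-rich chromosome 19, O-GlcNAc was there too in most cases. Of the 306 ASXL1 peaks that overlapped FOXK1, 87.3% also overlapped O-GlcNAc (83.1 to 90.5), against 58.4% on chromosomes 4 and 13 (54.6 to 62.2) and 66.9% in the whole list. Of the 280 FOXK1 peaks that overlapped ASXL1, 87.5% also overlapped O-GlcNAc (83.1 to 90.9), against 60.3% (56.4 to 64.1) and 68.1% in the whole list. Of the 2679 ASXL1 peaks without O-GlcNAc, 1.46% overlapped FOXK1 (1.07 to 1.98), against 6.11% (5.43 to 6.85) on the gene-poor chromosomes and 4.46% in the whole list.

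In the 243 regions of all 3 targets, the median scores were 540 for ASXL1 and 473 for O-GlcNAc, against 279 and 132 in such regions of chromosomes 4 and 13. The median FOXK1 score was the same to 3 digits, 112 and 112. Across regions that 2 lists held, Spearman's rho of scores on gene-rich chromosome 19 was 0.568 for ASXL1 and O-GlcNAc over 1022 regions. It was 0.153 for ASXL1 and FOXK1 over 273 regions and 0.198 for FOXK1 and O-GlcNAc over 288. On chromosomes 4 and 13 the values were 0.544, 0.226 and 0.204. ASXL1 and O-GlcNAc share a chromatin preparation and an input, and regions are not replicates.

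The 3 highest joint ranks of all 3 scores among these regions were held by the following places. At chr19:50083505-50084313 ASXL1 scored 2567.13, FOXK1 338.9 and O-GlcNAc 3100. At chr19:44668422-44670701 they were 2799.92, 622.27 and 2116.79 in the same order. At chr19:41768036-41771876, a region of 3841 bp, they were 2803.09, 337.57 and 2173.54. The next 3 were chr19:44763640-44765017, chr19:5790283-5791697 and chr19:19029936-19030746, and the last of them combined a high FOXK1 score of 1342.26 with 1034.34 for ASXL1 and 2213.28 for O-GlcNAc. Of the 8 best regions, chr19:37700789-37702174 and chr19:37708350-37709713 lay less than 10 kb apart and had FOXK1 scores of 1121.63 and 224.42.

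The score of 3100 recurs among the highest peaks. On gene-rich chromosome 19, 25 ASXL1 and 10 O-GlcNAc peaks had exactly that score and 2 and 1 a higher one, so peaks at 3100 have no order among themselves. The highest ASXL1 peak of gene-rich chromosome 19 was chr19:42900287-42901565 (score 3196.82, rank 11 of the list), which overlapped O-GlcNAc and not FOXK1. The next was chr19:1383075-1384165 (3110.96), which overlapped both. The widest ASXL1 peak, chr19:5689930-5699724, spanned 9795 bp with a score of 3100. The highest O-GlcNAc peak, chr19:44555679-44556667 (3196.41, rank 4), overlapped both other lists.

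The 5 highest FOXK1 peaks of gene-rich chromosome 19 each overlapped both other lists. They were led by chr19:30334906-30336947 (score 1854.16, rank 22), chr19:41902848-41904133 (1607.62) and chr19:41426266-41427730 (1545.2). The first of these lies in a stretch around the centromere where most FOXK1 peaks were unshared. In its own window of 1 Mb, from 30000001 to 31000000, 78.6% of 14 FOXK1 peaks overlapped another list. High scores without a partner also occurred. The ASXL1 peak chr19:50357766-50365217, 7452 bp wide, had a score of 3100 and overlapped neither other list. The O-GlcNAc peaks chr19:48922442-48922862 (2790.95), chr19:49309898-49310209 (2606.88) and chr19:49148044-49148663 (2379.62) were unaccompanied and lay within 400 kb of each other. The highest FOXK1 peak without a partner was chr19:47164099-47165026 (737.93).

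Gene-rich chromosome 19 was not uniform. In windows of 100 kb, 418 of 475 (88%) held an ASXL1 peak, 422 (88.8%) an O-GlcNAc peak and 255 (53.7%) a FOXK1 peak. On chromosome 4 the shares were 56.2%, 63.5% and 27.2%. The window with most peaks was chr19:44600001-44700000, with 29 ASXL1, 9 FOXK1 and 11 O-GlcNAc peaks, of which 29 of 49 overlapped another list. The next, chr19:42700001-42800000, held 32, 2 and 12. The window chr19:28200001-28300000 was also dense, with 33 ASXL1, 0 FOXK1 and 7 O-GlcNAc peaks, but only 6 of its 40 peaks overlapped another list.

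That window belongs to a stretch around the centromere where scores and sharing were low when pooled. Outside an empty interval, O-GlcNAc and FOXK1 peaks were denser there and ASXL1 peaks sparser than elsewhere on gene-rich chromosome 19. This centromere-flanking stretch, from the first left-out interval to position 33000000, was set apart after these values were seen, so its values are a description. It includes 3130 kb that hold no peak of any list (chr19:24623099-27753304). The other 5.37 Mb held 304 ASXL1 peaks at 56.6 per Mb, 366 O-GlcNAc peaks at 68.2 per Mb and 91 FOXK1 peaks at 16.9 per Mb. The remainder of gene-rich chromosome 19 had 88.7, 46.01 and 9.92 per Mb. O-GlcNAc peaks were thus more numerous than ASXL1 peaks in the stretch and less numerous outside it.

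Sharing was low in the stretch as a whole. Of its 91 FOXK1 peaks, 25.3% overlapped ASXL1 (17.5 to 35.1), against 66.2% in the remainder (61.4 to 70.8), and 21.98% overlapped O-GlcNAc (14.7 to 31.5), against 69.6% (64.8 to 74.0). Of its O-GlcNAc peaks, 13.1% overlapped ASXL1 (10.04 to 17.0), against 58.9% (56.6 to 61.2). Median scores of ASXL1, O-GlcNAc and FOXK1 in the stretch were 67.6, 64.3 and 67.8, against 93.3, 99.4 and 90.9 outside. The share of ASXL1 peaks that overlapped FOXK1 was alike in both, at 7.89% (5.36 to 11.5) and 8.13% (7.27 to 9.09). The stretch was not uniform. In its window from 30000001 to 31000000, picked after its values were seen, 78.6% of 14 FOXK1 peaks overlapped another list. Their median score was 112.93. For ASXL1 and O-GlcNAc peaks the shares in that window were 23.3% and 26.8%.

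Within 250 kb of the empty interval, the FOXK1 list held 21 member peaks. Of these, 0 overlapped another list, and in the same places the ASXL1 list held 0 peaks and the O-GlcNAc list 2. Their FOXK1 scores ran from 50.91 to 351.78. Without the whole stretch, the differences from chromosomes 4 and 13 were 35.8 points for FOXK1 in O-GlcNAc, 36.3 for O-GlcNAc in ASXL1 and 23.6 for FOXK1 in ASXL1, each above the value with it.

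The arms were then compared without that stretch. On the short arm, 76.2% of 160 FOXK1 peaks overlapped O-GlcNAc (69.1 to 82.2) and 73.8% overlapped ASXL1 (66.4 to 80.0). On the long arm, 64.9% of 228 FOXK1 peaks overlapped O-GlcNAc (58.5 to 70.8) and 61.0% overlapped ASXL1 (54.5 to 67.1). The intervals of the arms touch, and the difference was not tested. ASXL1 peaks overlapped FOXK1 in 8.20% on the short arm (6.94 to 9.68) and in 8.07% on the long arm (6.93 to 9.37).

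Single windows of 1 Mb on the long arm also departed from the rest. In the window from 43000001 to 44000000, 30 ASXL1, 31 O-GlcNAc and 13 FOXK1 peaks were listed, of which 16.7%, 19.4% and 23.1% overlapped another list. In the next, from 44000001 to 45000000, there were 158, 83 and 22 peaks, of which 32.9%, 63.9% and 81.8% did. These windows were chosen after their values were seen.

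Peaks near the edges of the left-out intervals were as follows. The nearest member before position 19900000 was an ASXL1 peak at chr19:19897121-19897300 (score 97.11), and the nearest peak inside was an O-GlcNAc peak at chr19:19904108-19904348 (score 61.4). At position 24500000, the nearest member was a FOXK1 peak of score 351.78, 26.2 kb outside. At position 58900000, the nearest peak inside was an O-GlcNAc peak of score 1258.62 and the nearest member an ASXL1 peak of score 160.11.

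The promoters that RefSeq gives for protein-coding genes (250 bases before to 50 after a start, GRCh38.p14, several per gene in some cases) describe the sequence of these chromosomes, with no link to single peaks. The median GC share was 64.3% in 1277 promoters of chromosome 19 without ZNF symbols, against 61% in 967 of chromosome 4, 62.3% in 434 of chromosome 13 and 62.3% in all 22199. The median ratio of observed to expected CpG went the other way, with 0.710 on chromosome 19 against 0.744, 0.786 and 0.737 in the same order. The forkhead motif GTAAACA, on either strand, stood in 1.17% of the chromosome 19 promoters (15 of them, 0.713% to 1.93%), in 3.52% on chromosome 4 (2.53% to 4.87%), in 1.84% on chromosome 13 (0.937% to 3.59%) and in 2.85% of all. The ETS motif CCGGAAG, on either strand, stood in 13.2%, 10.2%, 12.2% and 12.8% in the same order. With ZNF symbols kept, the 1548 chromosome 19 promoters held it in 18.02% (16.2% to 20.02%) and the forkhead motif in 1.16%. Symbols are not the left-out intervals, so neither set matches gene-rich chromosome 19 exactly. A match describes letters in this window and is no binding site by itself.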

How the data were processed

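Peaks of 3 libraries were used, 1 deposited list per library with no pooling, and each peak has a score from the authors' peak caller. Per the submitters' processing notes, Bowtie2 2.0.0, MACS 1.4 and build hg19 were used; caller settings and depth are not given in the sources used here. The deposited scores start at 50 in each list. The 2 input libraries were not analysed here. Coordinates are given from position 1.

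Chromosome length was the highest peak end in the 3 lists, less the left-out intervals. Density ratios carry exact conditional binomial intervals, shares Wilson intervals and their differences Newcombe intervals, all at 95%. PCR libraries without molecular identifiers and neighbouring peaks are not independent, so intervals cover counting error only. With 1 library per antibody no p-value was computed. Regions were merged by overlap of at least 1 bp. Named peaks were the 5 highest-scoring and 3 highest unaccompanied ones per list, the 8 regions of lowest rank sum, and the densest 100 kb windows, of which a part is printed. The members, comparison and lists were chosen with earlier results of these data known. Python 3.11.15, numpy 2.4.6, pandas 2.3.3 and scipy 1.17.1 were used. Overlap code was tested on FOXK1 peaks of chromosome 19 with planted partners, and the interval of density ratios on simulated counts. The other intervals were not tested in this way. Peak sequences and gene assignments were not analysed here.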

Additional observations from a re-analysis of the deposited data

How the results depend on the processing

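No paired analysis was possible because an antibody has only 1 library here, which also bars leaving libraries out. Score limits shorten the lists; otherwise the cause was not tested. Values are for gene-rich chromosome 19 against chromosomes 4 and 13. The density ratios stayed above 1 under all 8 alternatives run for each list. A score of at least 100 gave ratios of 6.56, 2.52 and 6.98 for ASXL1, FOXK1 and O-GlcNAc in that order, and the 10000 highest-scoring peaks gave 7.76, 2.46 and 9.60. The limit of 10000 keeps a larger part of the FOXK1 list (21697 peaks) than of ASXL1 (94237) or O-GlcNAc (78825). The whole of chromosome 19 gave 4.09, 1.93 and 2.48. Joined peaks gave 3.61 for ASXL1, leaving out the widest 1% gave 2.54 for O-GlcNAc, and leaving out the centromere-flanking stretch, chosen after seeing the data, gave 4.93 for ASXL1. The probability of a higher score was 0.562 for ASXL1 and 0.673 for O-GlcNAc at a score of at least 100. In the middle 50% of widths it was 0.485 for ASXL1 (0.467 to 0.502, below 0.5 but with an interval that holds it) and 0.537 for O-GlcNAc. For FOXK1 it lay between 0.519 and 0.569 in all 6 alternatives. It was 0.630 for O-GlcNAc without the widest peaks, and without that stretch it was 0.602 for ASXL1 and 0.685 for O-GlcNAc.

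Differences in shares follow in percentage points. For FOXK1 in ASXL1 they were 29.0 at a score of at least 100, 22.8 with the 10000 highest-scoring peaks and 23.6 without that stretch. For FOXK1 in O-GlcNAc they were 40.9, 41.1 and 35.8 in the same order, and 19.9 without the widest peaks. For O-GlcNAc in ASXL1 they were 13.3, −3.37 (−9.00 to 2.35) and 36.3, and 25.5 for peak centres, 24.0 for 400 bp windows and 22.1 without the widest peaks. For O-GlcNAc in FOXK1 the limits on score gave −1.87 (−5.25 to 1.499) and −4.80 (−9.90 to 0.192). These 3 negative values changed sign with intervals that hold 0. For ASXL1 in FOXK1 the 10000 highest-scoring peaks gave −6.81, and the sign held in all 9 alternatives. For ASXL1 in O-GlcNAc they were 5.99 for peak centres, 5.74 for windows and 4.40 without the widest peaks. Depth is unknown, so a peak called alone may have a partner that scored under 50.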
